A study of Mus musculus with 16 samples.

Results

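The comparison set organoid cells with the highest level of FOXA2 against cells that also carried FOXA2, at a low level. Its members were the 4 high libraries and the 4 low libraries, chosen by column name, which is 8 of the 16 libraries of the series; the other 8 came from the medium and the negative level. All 16 were bulk 3′ RNA-seq (BRB-seq) libraries of cells from day 4 organoids of the mouse neural tube, grown from R1, an established line of mouse embryonic stem cells, carrying the FOXA2-Venus reporter and given retinoic acid (RA) for 18 hours. Both groups therefore shared the line, the reporter, the RA treatment and the day, and the labels set them apart by FOXA2 level alone. The 4 levels are called gates here; the way the cells were separated is not given in the sources used here, and everything rests on 1 cell line. The labels number the libraries of each gate 1 to 4, and each number recurs in all 4 gates. They name no separate culture behind a number. Each p-value is set against the spread among libraries within gates, estimated over all 4 gates together, and this spread may be technical.

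FOXA2 is a forkhead transcription factor of the floor plate, the strip of cells at the ventral midline of the neural tube. The floor plate secretes Sonic hedgehog, which patterns the tube from below, and netrin, which guides axons, while BMP and WNT proteins from the roof plate act from above. FOXA2 is also known from the node, the notochord and the definitive endoderm.

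Totals ran from 5527287 to 7930805 counts in the low libraries and from 3268948 to 6517958 in the high libraries. Mitochondrial genes took 1.63% to 2.42% of counts in the low gate and 1.88% to 2.26% in the high gate. On the 8 libraries alone, the first principal component (33.9% of the variance) separated the gates, and on the second (15.8%) high 2 and high 4 lay at opposite ends. The low 1 library stood apart from the other low libraries, and medium 2 from the other medium ones, so the main counts are also given without both. The labels call the cells embryonic stem cells: Pou5f1, which embryonic stem cells need, had 12 counts in all over the 4 low libraries and 0 in each high library, where 0 allows up to 3 counts per library (0.463 to 0.913 CPM, from counting error only).

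Foxa2 itself (chromosome 2, 148042877 to 148046969, GRCm38) stood at 14.8, 9.54, 14.3 and 9.14 CPM in low 1 to low 4 and at 110.4, 103, 140.0 and 101 CPM in high 1 to high 4. CPM stands for counts scaled to a common library size. The groups did not overlap, and the log2 fold change was 3.24. The reporter chose the cells, so this checks the labels and is not a result.

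Across the 13891 genes tested, 521 were higher in the high gate (3.75%) and 427 were lower (3.07%), together 6.82%, at an adjusted p under 0.05 in edgeR's quasi-likelihood test. These genes are said to have risen or fallen below, always in high relative to low. The fold change was at least 2 for 220 of the rises and 247 of the falls. Where the text speaks of the 14 largest rises or falls, it means the largest fitted changes among called genes that had the same sign in all 4 same-numbered differences and at least 20 CPM on average in the higher gate, leaving out unnamed gene models. In 476 of the 521 every high library lay above every low library, and in 382 of the 427 every high library lay below; over all genes tested, 6.92% and 5.95% were separated in this way. Without the low 1 and medium 2 libraries the counts were 555 and 471. In bulk libraries, fewer cells that express a gene and less RNA per cell cannot be told apart, and this holds for every result given here.

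**Figure D1:**
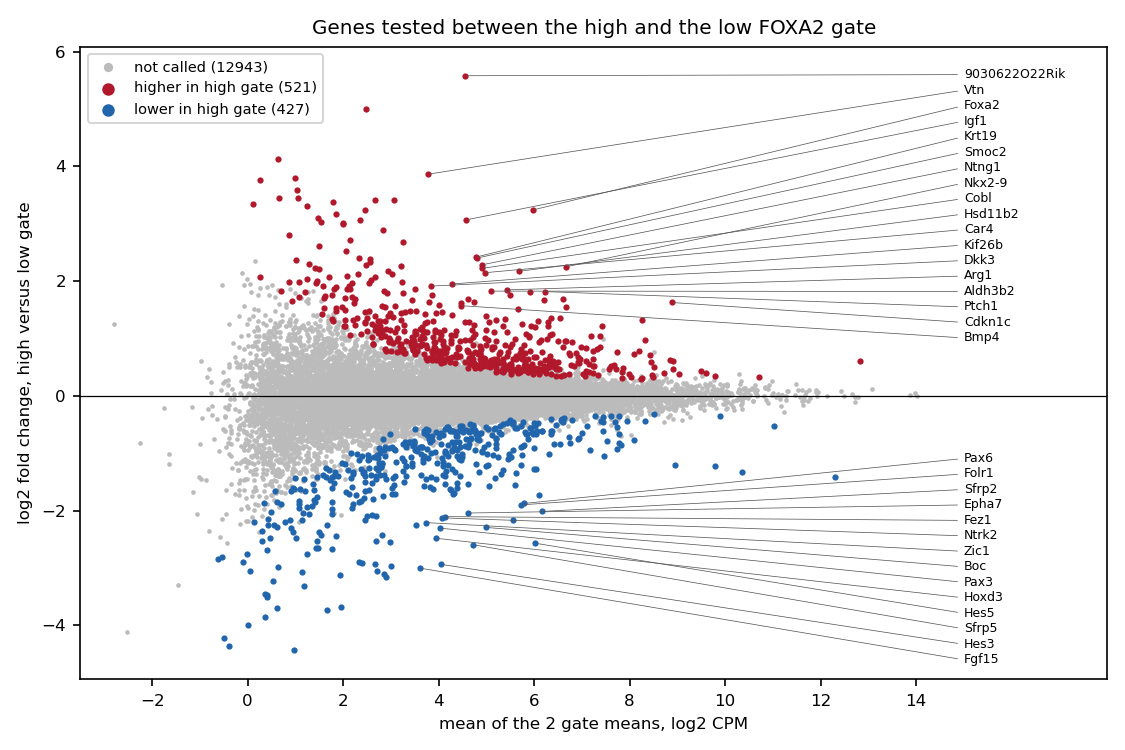
Log2 fold change of high against low (vertical axis) against the mean of both gate means in log2 CPM (horizontal axis, a log scale), 1 point per gene tested. The 521 genes called higher are red, the 427 called lower are blue, and names mark the 14 largest changes each way and 4 other genes, with 9030622O22Rik at the top.

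The noncoding neighbour of Foxa2 had a larger fold change than Foxa2 itself. 9030622O22Rik, a long noncoding RNA on the same strand (chromosome 2, 147944459 to 148040513), lies 2363 bases beyond the 3′ end of Foxa2. It stood at 1.39, 1.24, 0 and 1.16 CPM in the low libraries and at 47.9, 47.3, 41.5 and 48.1 CPM in the high libraries. The low values stand for 11, 7, 0 and 8 counts, and the 4 high libraries lay close together (log2 fold change 5.58, SE 0.378, adjusted p = 4.21e-10). The gene is an unnamed model and was singled out after its values were seen. Foxa1, the paralogue of Foxa2 (chromosome 12, 57540628 to 57548029), went from 3.04, 1.41, 0.706 and 2.32 CPM to 9.98, 7.33, 10.2 and 9.44 CPM without overlap (log2 fold change 2.28, SE 0.392, adjusted p = 3.30e-04). Both have a forkhead core (TGTTTAC, or GTAAACA when it lies on the other strand) in a promoter window of 250 bases before to 50 after an annotated start, while Sp5, a WNT response gene described below, has a TCF core (CTTTGAT on either strand). These 3 windows are shown because the genes rose with Foxa2 and each holds a core motif, in capitals (RefSeq, GRCm38.p6, 5′ to 3′ on the gene's strand). They lie at chr2:148040323-148040622 (minus strand), chr12:57546062-57546361 (minus strand) and chr2:70474673-70474972 (plus strand).
9030622O22Rik: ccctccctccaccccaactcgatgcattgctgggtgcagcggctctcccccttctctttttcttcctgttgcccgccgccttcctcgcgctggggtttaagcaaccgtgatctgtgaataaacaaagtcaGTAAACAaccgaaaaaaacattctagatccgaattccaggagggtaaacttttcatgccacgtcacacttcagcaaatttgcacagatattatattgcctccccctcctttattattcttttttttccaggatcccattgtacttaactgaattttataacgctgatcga
Foxa1: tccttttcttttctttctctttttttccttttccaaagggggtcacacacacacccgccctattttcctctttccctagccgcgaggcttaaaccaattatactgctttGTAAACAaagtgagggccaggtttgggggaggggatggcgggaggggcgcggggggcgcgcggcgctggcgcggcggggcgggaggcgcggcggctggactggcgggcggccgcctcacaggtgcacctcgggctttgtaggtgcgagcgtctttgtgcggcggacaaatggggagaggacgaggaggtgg
Sp5: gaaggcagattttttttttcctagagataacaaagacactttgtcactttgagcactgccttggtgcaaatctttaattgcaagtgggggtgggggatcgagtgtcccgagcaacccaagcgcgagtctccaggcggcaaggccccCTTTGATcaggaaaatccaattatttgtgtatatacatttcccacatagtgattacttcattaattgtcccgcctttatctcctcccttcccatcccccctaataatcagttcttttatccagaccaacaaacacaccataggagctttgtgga

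The forkhead core was in 3.65% of all 32851 RefSeq promoter windows. Among genes with a window it was in 20 of 390 that rose (5.13%), 9 of 295 that fell (3.05%) and 307 of 10467 tested (2.93%). The TCF core was in 13 of 390 rises (3.33%) against 3.09% of genes tested, and the GLI core (GACCACCCA on either strand) in 1 of 390 (0.256%) against 0.287%. A match describes letters in a window and is not a binding site. The overlapping windows of the annotated starts of 9030622O22Rik that hold a forkhead match share 1 match, and the gene was counted once among the rises.

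Of 12 floor plate genes tested besides Foxa2, 4 rose and 1 fell, where 3.75% and 3.07% of all genes did, and the list's median log2 fold change was 0.52 against -0.01 for all genes. Ntn1, the netrin that attracts commissural axons, stood at 8.74, 11.3, 11.9 and 10.2 CPM in the low libraries and at 25.6, 26.1, 24.7 and 36.5 CPM in the high ones. High 4 was above the other 3, and no high library reached down to the low range (log2 fold change 1.41, SE 0.194, adjusted p = 2.01e-05). Spon1 (F-spondin), an adhesion protein of the floor plate, rose from 12.9 ± 1.94 to 28.4 ± 1.94 CPM (log2 fold change 1.14, SE 0.177, adjusted p = 1.05e-04), where ± is the SD over 4 libraries here and below. Slit3, a repellent for Robo-bearing axons, rose from 15.4 ± 2.96 to 27.3 ± 5.78 CPM (log2 fold change 0.82, adjusted p = 0.0192), a call lost without low 1, low 3, high 2 or high 4 (largest adjusted p 0.0783). Slit1 was 22.4 ± 6.54 CPM in low and 20.2 ± 1.69 CPM in high and was not called. Ctgf, a matricellular protein, fell from 7.97 ± 1.40 to 3.07 ± 0.983 CPM (log2 fold change -1.39, SE 0.280, adjusted p = 0.00191). The cilia regulator Foxj1 was low in both gates (1.76 ± 0.720 and 2.39 ± 1.57 CPM, adjusted p = 0.801). Shh itself had too few counts for the test: 1, 1, 1 and 0 in the low libraries and 9, 5, 7 and 5 in the high ones. Every high library had more Shh counts than any low library, on a few counts each. Without high 1, 2 floor plate genes fell instead of 1.

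Of the ventral progenitor homeobox genes, which divide the ventral tube into domains, 2 of the 5 tested rose and the other 3 did not pass. Nkx2-9, a gene next to the midline in the ventral tube (chromosome 12, 56611389 to 56613569), was at 42.9, 44.2, 28.4 and 25.8 CPM in low and at 160.0, 217, 171 and 123 CPM in high. The lowest high library was far above the highest low one (log2 fold change 2.25, SE 0.192, adjusted p = 1.31e-08). Nkx6-1, a factor of a broader ventral territory, was at 3.80, 2.83, 5.08 and 1.31 CPM in low and at 18.5, 6.83, 26.7 and 9.74 CPM in high. The high libraries spread widely, with high 2 closest to the low range, and the groups still did not overlap (log2 fold change 2.26, SE 0.404, adjusted p = 5.16e-04). The intermediate-domain factors Dbx1 (1.44 ± 0.532 CPM in low, 0.363 ± 0.0962 in high) and Dbx2 (1.91 ± 0.954 and 4.52 ± 0.643 CPM) did not pass the test, at adjusted p of 0.0513 and 0.1000. Dbx1 had only 1 or 2 counts in each high library. Nkx2-2 had 9 counts over the low libraries and 2 over the high ones. Without low 2, 1 gene of the list fell. Olig2, Sox1 and Sox2 were listed at 0 in all 8 libraries, and no level is read from them.

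Of 5 direct Hedgehog targets tested, 3 rose and the other 2 did not pass (median log2 fold change 1.20). Ptch1, the Hedgehog receptor and a feedback target of the pathway, stood at 29.5, 45.7, 27.0 and 30.6 CPM in low and at 108, 142, 95.7 and 122 CPM in high. The ranges lay well apart (log2 fold change 1.82, SE 0.188, adjusted p = 2.91e-07). Hhip, which binds and sequesters Hedgehog ligands, rose from 3.02 ± 1.03 to 13.2 ± 3.14 CPM (log2 fold change 2.13, SE 0.429, adjusted p = 0.00188). Gli1, a transcription factor induced by the pathway, rose from 11.7 ± 1.73 to 19.8 ± 1.91 CPM (log2 fold change 0.77, adjusted p = 0.0349), but the call was lost in 8 of the 15 alternative analyses, among them every omission of a low or high library other than low 2 and high 4 (largest adjusted p 0.116). Rab34, a small GTPase of cilium formation, was at 117 ± 2.44 CPM in low and 125 ± 11.8 CPM in high (adjusted p = 0.781).

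Of 19 genes of Hedgehog reception and transduction, 5 fell (26.3%) and 1 rose (5.26%), against 3.07% and 3.75% of all genes (median -0.30). Boc, a co-receptor that helps present the ligand to Ptch1, stood at 71.9, 38.5, 47.7 and 52.1 CPM in low and at 11.1, 9.11, 8.63 and 14.9 CPM in high. Every low library was above every high one by more than 2-fold (log2 fold change -2.29, SE 0.203, adjusted p = 2.44e-08). Gas1, another co-receptor, named after its values were seen, fell from 14.3 ± 3.24 to 7.97 ± 0.839 CPM (log2 fold change -0.86, adjusted p = 0.0152), a call lost without low 1, low 3 or high 1 (largest adjusted p 0.0600). Gli3, mainly a repressor in the absence of ligand, fell from 48.4 ± 8.58 to 25.6 ± 3.74 CPM (log2 fold change -0.91, adjusted p = 0.00140), and Gli2, the main activator, fell from 25.7 ± 5.99 to 14.7 ± 1.25 CPM (log2 fold change -0.81, adjusted p = 0.00787). Scube2, which helps release the ligand, fell from 3.83 ± 0.996 to 0.926 ± 0.528 CPM (log2 fold change -1.93, adjusted p = 0.00297), a call lost when all libraries were thinned to 1 depth (adjusted p = 0.0568). Gpc3, a glypican that binds Hedgehog at the surface, rose from 115 ± 20.9 to 203 ± 22.4 CPM (log2 fold change 0.82, SE 0.128, adjusted p = 1.05e-04).

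Genes of the dorsal and intermediate neural tube fell in large part, 14 of 23, the other 9 did not pass, and the median was -1.03. Pax6, a factor of intermediate progenitors (chromosome 2, 105668896 to 105698410), stood at 101, 71.4, 83.9 and 92.1 CPM in low and at 25.3, 22.3, 23.6 and 23.7 CPM in high. The high libraries agreed closely with each other and the lowest low library was well above them (log2 fold change -1.87, SE 0.142, adjusted p = 1.90e-09). Pax3, a dorsal progenitor and neural crest factor, stood at 31.0, 20.8, 30.6 and 25.7 CPM in low and at 3.49, 2.28, 8.17 and 7.91 CPM in high, again without overlap (log2 fold change -2.30, SE 0.274, adjusted p = 2.48e-06). Pax7, its dorsal relative, fell from 12.2 ± 0.860 to 3.94 ± 2.52 CPM (log2 fold change -1.71, adjusted p = 2.34e-04). Zic1, a zinc-finger factor of the dorsal tube, fell from 21.9 ± 1.89 to 4.78 ± 1.184 CPM (log2 fold change -2.21, adjusted p = 1.14e-07), as did Msx3, a homeobox gene of the dorsal tube, from 13.6 ± 1.74 to 2.35 ± 1.202 CPM (log2 fold change -2.55, adjusted p = 4.81e-06), and the orphan nuclear receptor Nr2f1, from 30.4 ± 4.27 to 9.66 ± 2.68 CPM (log2 fold change -1.70, adjusted p = 3.12e-06). Its relative Nr2f2, named after its values were seen, was 85.3 ± 4.61 CPM in low and 74.6 ± 5.33 in high and was not called (adjusted p = 0.599).

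Of 18 pan-neural progenitor genes 13 fell, the other 5 did not pass, and the median was -1.28. Hes5, a Notch effector of neural progenitors (chromosome 4, 154960626 to 154962372), stood at 109, 113, 108 and 113 CPM in low and at 16.1, 16.7, 16.5 and 26.8 CPM in high. The 4 low libraries lay within a few percent of each other, and high 4 was above the other 3 high ones (log2 fold change -2.57, SE 0.161, adjusted p = 2.28e-10). Hes3, another Hes factor of early neural progenitors, stood at 33.3, 21.2, 28.9 and 34.7 CPM in low and at 4.82, 2.78, 4.01 and 3.348 CPM in high (log2 fold change -2.94, SE 0.228, adjusted p = 2.27e-09). Nrcam, a neural adhesion molecule, fell from 30.4 ± 1.57 to 9.10 ± 2.45 CPM (log2 fold change -1.71, adjusted p = 3.06e-07). Rfx4, a transcription factor of the neural tube, fell from 52.6 ± 4.73 to 19.8 ± 5.69 CPM (log2 fold change -1.42, adjusted p = 4.73e-06). Nes (nestin), the intermediate filament of neural progenitors, was named after its values were seen and stood at 41.9, 52.6, 99.1 and 95.2 CPM in low and at 27.4, 17.5, 33.8 and 18.3 CPM in high (log2 fold change -1.54, SE 0.262, adjusted p = 2.96e-04). Without low 1, or without low 2, 1 gene of the list rose, and without low 1 and medium 2, 2 did.

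Of 15 genes of neuronal commitment 3 fell and 12 did not pass. Gap43, a growth cone protein, fell from 24.6 ± 2.91 to 9.28 ± 3.12 CPM (log2 fold change -1.38, SE 0.193, adjusted p = 2.52e-05). Elavl3, an RNA-binding protein of new neurons, fell from 9.61 ± 1.299 to 5.16 ± 1.07 CPM (log2 fold change -0.89, adjusted p = 0.0182), a call lost without low 1, high 1 or high 2. Stmn2 (51.2 ± 13.2 and 34.3 ± 6.66 CPM, adjusted p = 0.0820) and Stmn3 (11.6 ± 0.655 and 7.38 ± 1.31 CPM, adjusted p = 0.0760), regulators of neuronal microtubules, did not pass. In the Notch pathway list, 1 of 16 rose and 1 fell (6.25% each, against 3.75% and 3.07% of all genes). That list holds neither Hes5 nor Hes3, which fell and are counted above as pan-neural genes. Hes1, a Notch effector of many tissues, rose from 118 ± 10.5 to 185 ± 23.3 CPM (log2 fold change 0.64, SE 0.106, adjusted p = 2.24e-04). Lfng, a sugar transferase that modifies Notch, fell from 19.1 ± 4.08 to 3.97 ± 1.423 CPM (log2 fold change -2.25, SE 0.2496, adjusted p = 8.14e-07).

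**Figure D2:**
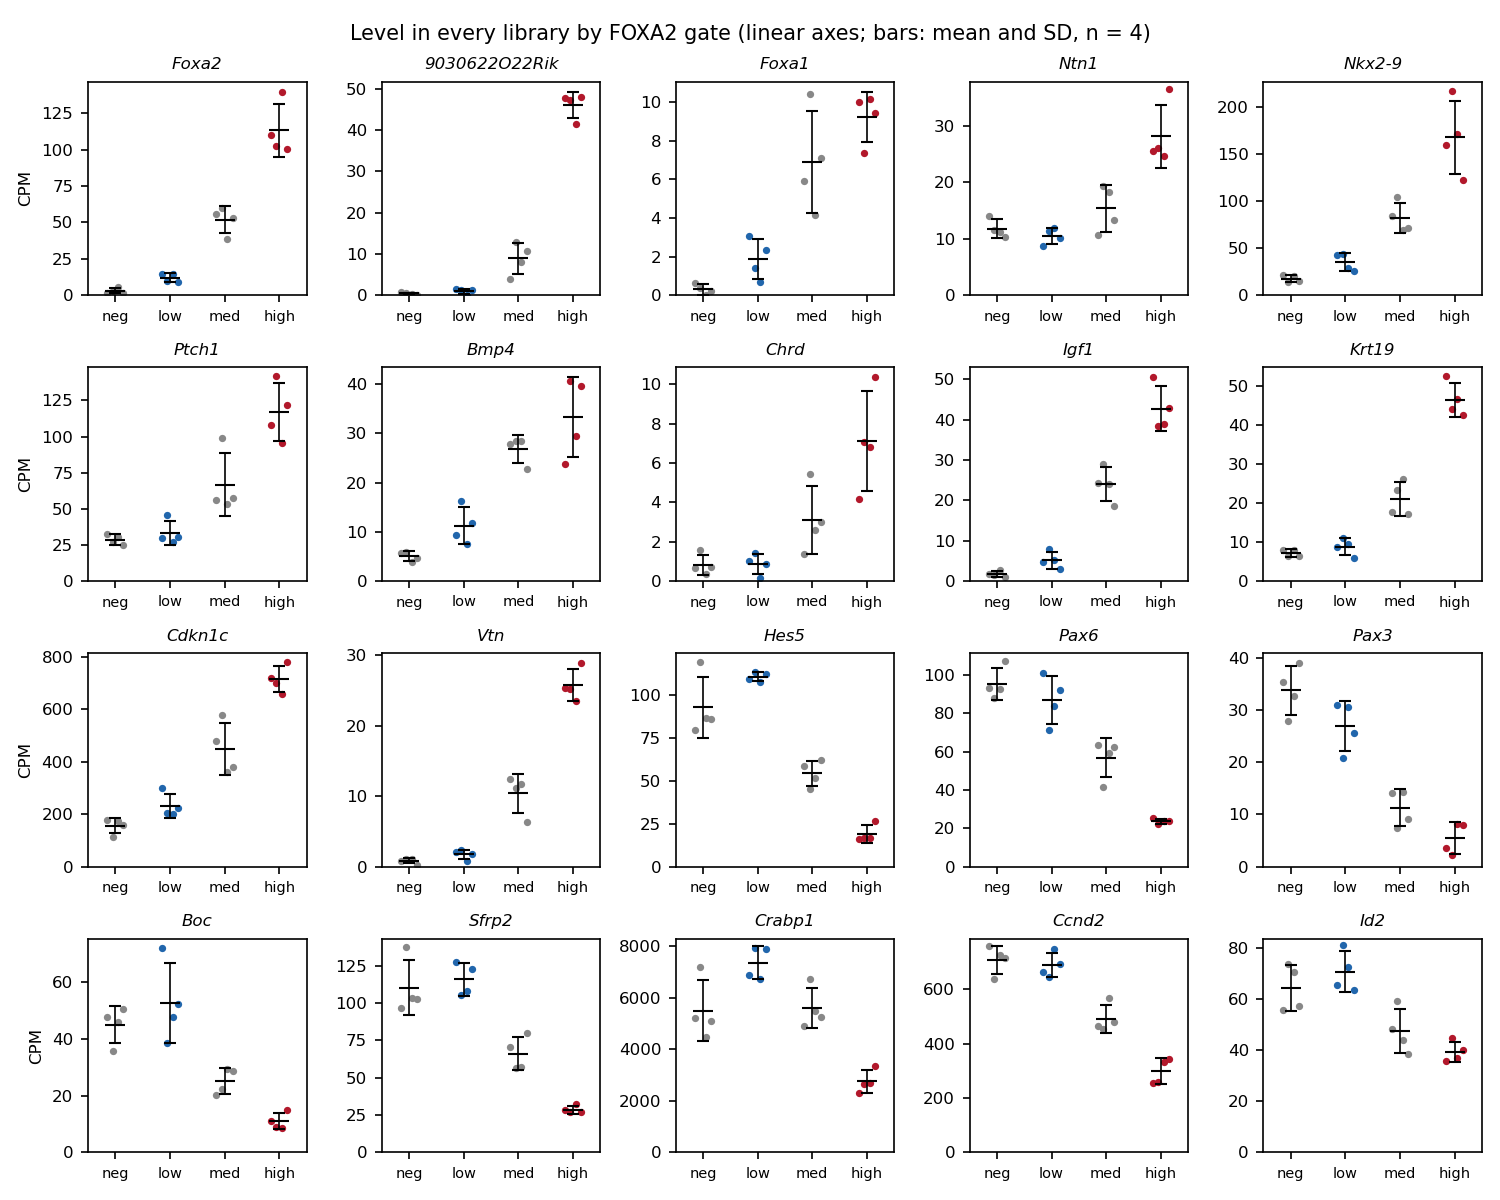
Level in CPM (vertical axes, linear, from 0) of 20 genes in each of the 16 libraries, by gate (negative, low, medium, high), with bars for the mean and SD of the 4 libraries of a gate. In the first 12 panels the red high points lie above the blue low points, and in the last 8 panels (Hes5 to Id2) they lie below.

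In the BMP pathway, which the series' title names, Bmp4 and 4 antagonists or modulators rose, and no receptor or Smad passed the test. Of 8 BMP and GDF ligands tested, 3 rose and 1 fell. Bmp4, the BMP ligand of the early embryo and the roof plate (chromosome 14, 46383525 to 46390669), stood at 9.37, 16.2, 7.48 and 11.7 CPM in low and at 23.8, 40.7, 29.4 and 39.6 CPM in high. High 1 was the lowest of its gate and still above every low library (log2 fold change 1.57, SE 0.210, adjusted p = 1.48e-05). Bmp7 stood at 59.4, 62.7, 59.0 and 60.2 CPM in low and at 67.0, 89.0, 67.8 and 68.8 CPM in high. All 4 high libraries were above all 4 low ones, by little except in high 2, and the test was not passed (log2 fold change 0.28, SE 0.131, adjusted p = 0.259). Bmp3, an atypical ligand, stood at 0.127, 0.530, 0 and 0 CPM in low and at 2.83, 1.77, 2.47 and 1.83 CPM in high, that is at 0 to 3 counts in each low library (log2 fold change 3.76, adjusted p = 0.00124). Bmp1, a protease of matrix and BMP antagonists, rose from 25.1 ± 4.07 to 36.2 ± 4.97 CPM (log2 fold change 0.52, adjusted p = 0.0353), and the call was lost in 8 of 15 alternatives. Gdf3, a ligand of pluripotent cells, fell from 5.27 ± 2.76 to 1.74 ± 1.08 CPM (log2 fold change -1.52, adjusted p = 0.0324), a call lost in 5. Thinned to 1 depth, 1 ligand rose instead of 3, because Bmp1 lost its call and Bmp3 was not tested. Without low 1, low 3, low 4 or high 3, 2 ligands fell.

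Among 15 secreted or membrane BMP antagonists and modulators, 4 rose and the other 11 did not pass (median 0.24). Smoc2 and Smoc1 are matricellular proteins that modulate BMP signals. Smoc2 stood at 8.99, 11.0, 7.34 and 8.27 CPM in low and at 46.1, 56.2, 40.1 and 45.7 CPM in high (log2 fold change 2.40, SE 0.177, adjusted p = 1.42e-09), and Smoc1 at 96.6, 111, 83.6 and 90.8 CPM and 201, 201, 184 and 199 CPM (log2 fold change 1.04, SE 0.110, adjusted p = 4.24e-07). For both, the high libraries lay well above the low ones. Those of Smoc1 lay close together, while those of Smoc2 spread from 40.1 to 56.2 CPM. Chordin (Chrd), which binds BMPs directly, stood at 1.01, 1.41, 0.141 and 0.870 CPM in low and at 4.16, 7.08, 6.78 and 10.3 CPM in high. Its low values were 8, 8, 1 and 6 counts, and the groups did not overlap (log2 fold change 3.02, SE 0.508, adjusted p = 2.64e-04). Fstl1, a follistatin-like protein, rose from 116 ± 17.1 to 169 ± 7.77 CPM (log2 fold change 0.55, adjusted p = 0.00431). Noggin (Nog) was below the filter, with 6 counts over the low libraries and 3 over the high ones.

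No BMP receptor or Smad among the 9 tested passed in edgeR, DESeq2 called none in either direction, and at an unadjusted p under 0.05 the counts were 2 higher and 1 lower. Bmpr1a was at 48.5 ± 7.57 CPM in low and 51.4 ± 7.91 CPM in high (adjusted p = 0.875), and Smad1 at 17.3 ± 3.10 and 12.4 ± 2.62 CPM (adjusted p = 0.127). Of 12 genes known to respond to BMP, 1 rose (8.33%) and 2 fell (16.7%), against 3.75% and 3.07% of all genes (median -0.34). Id2, an inhibitor of bHLH factors, stood at 65.3, 81.2, 72.6 and 63.4 CPM in low and at 35.8, 44.8, 37.0 and 39.9 CPM in high, without overlap (log2 fold change -0.85, SE 0.141, adjusted p = 2.35e-04). Its relatives did not pass: Id1 was at 93.9 ± 23.7 and 78.5 ± 17.1 CPM (log2 fold change -0.27, SE 0.173, adjusted p = 0.455). Id3 was at 544 ± 89.4 and 412 ± 33.9 CPM (log2 fold change -0.40, SE 0.139, adjusted p = 0.0887), and it was called lower in 5 of 15 alternatives. Msx1, a homeobox gene of dorsal cells, was at 113 ± 15.6 and 82.7 ± 16.0 CPM (adjusted p = 0.0777) and was called lower in 4. Msx2 fell from 4.27 ± 1.504 to 1.70 ± 0.618 CPM (log2 fold change -1.38, adjusted p = 0.0482), a call lost in 7 alternatives. Without low 1, low 3, high 1, high 2 or high 3 the list held 1 fall, and without low 1 and medium 2 it held 2 rises. Atoh8, a bHLH factor, rose from 6.67 ± 2.58 to 22.2 ± 4.47 CPM (log2 fold change 1.75, SE 0.252, adjusted p = 3.59e-05).

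WNT ligands and modulators showed 11 falls and 3 rises among 29 tested (median -0.72). Sfrp1, Sfrp2 and Sfrp5, secreted WNT inhibitors, fell. Sfrp2 stood at 128, 105, 108 and 123 CPM in low and at 28.3, 26.8, 32.4 and 26.8 CPM in high (log2 fold change -2.01, SE 0.140, adjusted p = 4.87e-10). Sfrp5 fell from 45.6 ± 15.8 to 7.40 ± 1.91 CPM (log2 fold change -2.59, SE 0.273, adjusted p = 3.49e-07), and Sfrp1 fell from 106 ± 23.4 to 32.2 ± 5.45 CPM (log2 fold change -1.73, SE 0.213, adjusted p = 4.06e-06). The Dickkopf family members among the calls rose. Dkk3 rose from 6.01 ± 2.04 to 22.5 ± 5.47 CPM (log2 fold change 1.91, SE 0.240, adjusted p = 5.60e-06), and Dkk1, an inhibitor of the Lrp co-receptors named after its values were seen, stood at 0.507, 0.353, 0.565 and 1.02 CPM in low and at 4.49, 7.08, 3.24 and 6.09 CPM in high (log2 fold change 3.02, adjusted p = 3.67e-04). The receptor Fzd2 rose from 108 ± 14.2 to 223 ± 13.2 CPM (log2 fold change 1.04, adjusted p = 2.62e-06). Also named after their values were seen, the roof plate ligand Wnt1 stood at 11.8, 7.24, 4.38 and 5.66 CPM in low and at 0.665, 0.506, 0.617 and 0.304 CPM in high (log2 fold change -3.68, adjusted p = 9.29e-06). The WNT secretion proteins Wls (log2 fold change -0.83, adjusted p = 2.42e-05) and Porcn (log2 fold change -1.01, adjusted p = 3.64e-04) fell as well. Of 13 genes that respond to WNT, 4 rose and the other 9 did not pass. Sp5, the zinc-finger gene whose promoter window is shown above, stood at 37.7, 18.7, 22.7 and 26.5 CPM in low and at 94.95, 88.5, 113 and 77.3 CPM in high, far apart (log2 fold change 1.82, SE 0.202, adjusted p = 8.14e-07). Cdx2, a caudal homeobox factor, rose from 0.915 ± 0.145 to 3.80 ± 0.785 CPM (log2 fold change 2.04, adjusted p = 0.00858). The rises of Ccnd1 (log2 fold change 0.42, adjusted p = 0.0143) and Tcf7l1 (log2 fold change 0.51, adjusted p = 0.0432) were lost without low 2 or without low 4, which left 2 of the 4. That of Tcf7l1 was lost without any single library other than low 1 (largest adjusted p 0.180). Axin2, a common WNT readout, named after its values were seen, was 45.9 ± 5.32 CPM in low and 38.7 ± 6.74 CPM in high (adjusted p = 0.418).

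Of 23 FGF ligands, receptors and response genes, 5 fell and 18 did not pass (median -0.38). Fgf15, a ligand of the early neural tube (chromosome 7, 144896532 to 144900953), stood at 17.3, 20.1, 23.9 and 25.4 CPM in low and at 2.66, 0.759, 2.93 and 4.57 CPM in high. It led the 14 largest falls, and the groups did not overlap (log2 fold change -3.0, SE 0.254, adjusted p = 1.17e-08). Fgf3, another ligand, fell from 35.6 ± 1.93 to 18.4 ± 5.16 CPM (log2 fold change -0.94, adjusted p = 7.22e-04), and the receptor Fgfr3 fell from 6.63 ± 1.38 to 2.66 ± 1.11 CPM (log2 fold change -1.33, adjusted p = 0.00680). The calls of Fgfr1 (log2 fold change -0.43, adjusted p = 0.0245) and the feedback inhibitor Spry4 (log2 fold change -2.2, adjusted p = 0.0482) were each lost in 7 of 15 alternatives, and the list had 3 falls without low 2, high 1, high 3 or high 4.

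In the retinoic acid list 4 of 16 fell (25%) and 1 rose (6.25%), against 3.07% and 3.75% of all genes. Crabp1, a cytoplasmic retinoic acid-binding protein and one of the most abundant transcripts here, stood at 6872, 7938, 6724 and 7868 CPM in low and at 2290.0, 2662, 2691 and 3362 CPM in high. Even the highest high library was below every low one by about 2-fold (log2 fold change -1.42, SE 0.132, adjusted p = 5.80e-08). Its relative Crabp2 fell from 1859.7 ± 374 to 745 ± 92.6 CPM (log2 fold change -1.32, SE 0.208, adjusted p = 1.23e-04). The falls of the degrading enzyme Cyp26b1 (from 5.85 ± 4.38 to 0.479 ± 0.374 CPM, adjusted p = 0.0281) and the receptor Rxrg (from 2.13 ± 0.521 to 0.353 ± 0.342 CPM, adjusted p = 0.0108) were both lost without high 3, which left 2 falls. That of Cyp26b1 was also lost without low 2, high 1 or high 2 (largest adjusted p 0.0986), and without low 1 the list held 2 rises. Hox genes, which RA induces along the axis, showed 5 falls (35.7%) and 1 rise (7.14%) among 14 (median -0.74). Hoxd3 stood at 31.0, 14.3, 26.5 and 32.5 CPM in low and at 4.66, 3.79, 5.86 and 3.96 CPM in high (log2 fold change -2.48, SE 0.320, adjusted p = 8.68e-06). Hoxa2 fell from 43.2 ± 8.96 to 21.6 ± 2.41 CPM (log2 fold change -1.01, adjusted p = 2.31e-04) and Hoxb3 fell from 13.87 ± 2.95 to 5.95 ± 1.48 CPM (log2 fold change -1.23, adjusted p = 7.77e-04). Hoxb1 rose from 62.0 ± 9.26 to 96.3 ± 12.9 CPM (log2 fold change 0.64, SE 0.151, adjusted p = 0.00819), with high 2 just above the highest low library. The number of falls was 3 without low 4 or high 2 and 8 without low 2 or without the filter on low counts.

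The insulin-like growth factor system showed 3 rises (20%) and 1 fall (6.67%) among 15, against 3.75% and 3.07% of all genes. Igf1, the growth factor itself (chromosome 10, 87858265 to 87937047), stood at 4.69, 7.95, 5.08 and 2.90 CPM in low and at 50.6, 38.4, 39.0 and 42.9 CPM in high. The ranges were far apart (log2 fold change 3.07, SE 0.236, adjusted p = 2.00e-09). The IGF-binding proteins Igfbp5 (from 184, 235, 147 and 138 to 429, 422, 419 and 494 CPM over libraries 1 to 4, log2 fold change 1.33, SE 0.205, adjusted p = 1.00e-04) and Igfbp4 (from 51.4 ± 7.15 to 151 ± 27.3 CPM, log2 fold change 1.55, adjusted p = 5.80e-08) rose too. Igfbpl1, a related secreted protein, fell from 68.4 ± 9.02 to 36.9 ± 3.07 CPM (log2 fold change -0.89, adjusted p = 3.12e-04). The receptor Igf1r, named after its values were seen, was 40.5 ± 8.98 CPM in low and 47.6 ± 4.04 CPM in high (adjusted p = 0.513).

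**Figure D3:**
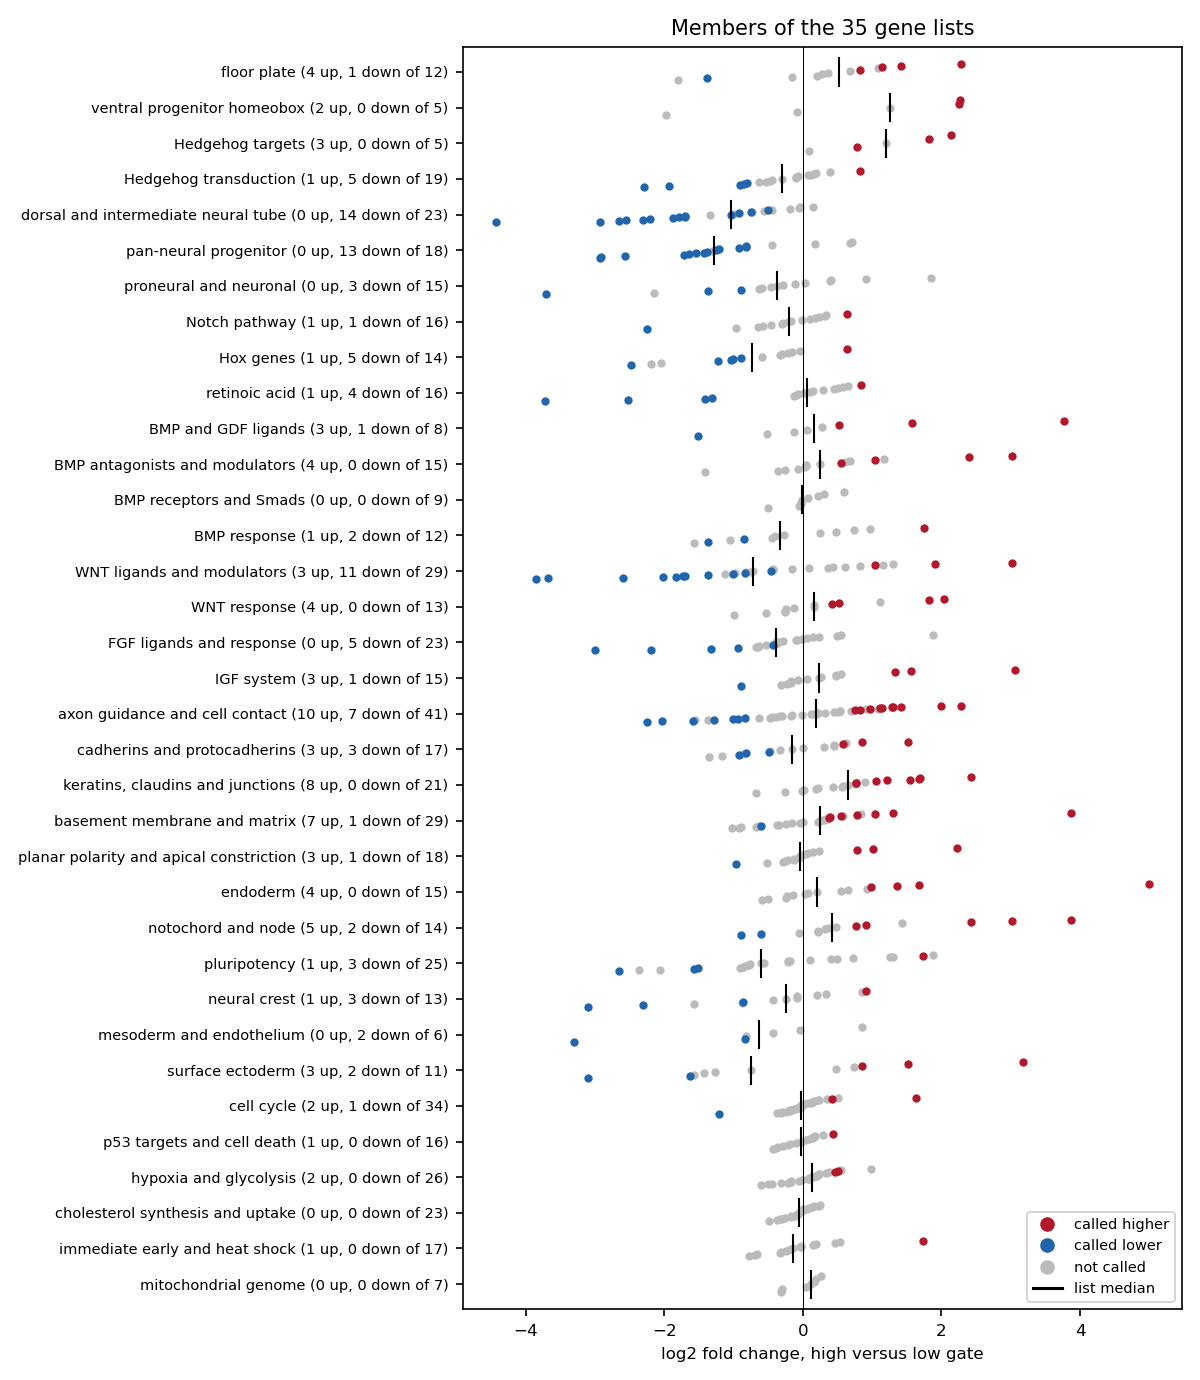
Log2 fold change of high against low (horizontal axis) of every tested member of the 35 gene lists, 1 row per list, with red for called higher, blue for called lower, grey for not called and a black bar for the list median. The pan-neural row holds 13 blue points of 18 and the keratin and claudin row 8 red points of 21, and the cholesterol row has none of either colour.

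Of 21 epithelial genes (keratins, claudins and junction genes), 8 rose and the other 13 did not pass (median 0.65). Krt19, a keratin of simple epithelia, stood at 8.74, 11.0, 9.46 and 5.80 CPM in low and at 52.5, 44.3, 46.7 and 42.6 CPM in high (log2 fold change 2.42, SE 0.185, adjusted p = 1.90e-09). Cldn6, a tight junction claudin of embryonic epithelia, stood at 46.5, 51.0, 43.3 and 44.2 CPM in low and at 137, 158, 150.5 and 149 CPM in high (log2 fold change 1.68, SE 0.117, adjusted p = 4.87e-10). In both genes the high libraries were several times the low ones, with no overlap. Krt7 (from 11.7 ± 2.78 to 37.6 ± 8.19 CPM), Krt18 (from 159 ± 37.7 to 269.9 ± 31.0 CPM) and Cldn7 (from 37.1 ± 8.33 to 86.1 ± 4.87 CPM) rose too. Among cadherins, 3 of 17 rose and 3 fell (17.6% each, against 3.75% and 3.07% of all genes). Cdh1 (E-cadherin), of most epithelia, stood at 27.6, 31.4, 25.6 and 20.5 CPM in low and at 76.7, 76.9, 70.3 and 75.8 CPM in high (log2 fold change 1.51, SE 0.166, adjusted p = 6.94e-07). Cdh2 (N-cadherin), of the neural tube, stood at 148, 135, 132 and 133 CPM in low and at 76.3, 72.1, 75.8 and 88.3 CPM in high (log2 fold change -0.82, SE 0.115, adjusted p = 2.73e-05). The 2 genes thus moved in opposite directions, each without overlap. Epcam, an epithelial adhesion molecule, rose from 90.3 ± 8.13 to 162 ± 8.26 CPM (log2 fold change 0.85, adjusted p = 1.32e-04).

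Of 15 endoderm markers, 4 rose (Cldn6 among them, which the epithelial list also holds) and the other 11 did not pass (median 0.20). The summed level of the list was 1739 to 1924 CPM in the low libraries and 1921 to 2171 CPM in the high ones, ranges that touch. Most of this sum came from members that were not called. Sox17, a factor that defines endoderm, stood at 59.5, 41.5, 52.5 and 56.0 CPM in low and at 154, 121, 134 and 128 CPM in high (log2 fold change 1.36, SE 0.176, adjusted p = 9.43e-06). Ttr, a transport protein of visceral endoderm and choroid plexus, stood at 0.760, 0, 0.282 and 0.145 CPM in low and at 9.64, 9.36, 12.5 and 12.2 CPM in high (log2 fold change 5.00, adjusted p = 2.04e-07). Emb rose from 215 ± 11.2 to 423 ± 29.3 CPM (log2 fold change 0.98, adjusted p = 3.91e-08). Gata6 had 9 counts over the low and 44 over the high libraries, Afp had 20 and 29, and Hnf4a had 4 and 0. Of 11 surface ectoderm markers, 3 rose (Cdh1 and Epcam, given above, and Krt15) and 2 fell (Tfap2b and Tfap2c), and their sum was 173 to 234 and 286 to 309.5 CPM. The defining basal markers Krt5 and Krt14 had 19 and 8 counts over the low libraries and 6 and 0 over the high ones. The part of either cell type in the epithelial result was not tested.

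Notochord and node markers, cells that also carry FOXA2, showed 5 rises and 2 falls among 14, with sums of 426 to 538 CPM in low and 588 to 688 CPM in high. The rises were Vtn, Krt19, Sox9, Chrd and Krt18, and the falls were Col2a1 and Car3, the last named after its values were seen. Sox9 rose from 32.2 ± 4.90 to 60.4 ± 6.11 CPM (log2 fold change 0.91, adjusted p = 1.63e-04). T (brachyury), which defines the notochord, was at 1.55 ± 0.589 CPM in low and 4.25 ± 2.73 CPM in high (adjusted p = 0.0678) and was called higher only without high 1. Noto was at 0 counts in all 8 libraries. The part of these cells in the rises was not tested. Of 13 neural crest markers 3 fell (Pax3, Tfap2b and Zeb2, 23.1%) and 1 rose (Sox9, 7.69%), against 3.07% and 3.75% of all genes. Their sums were 120.3 to 137 CPM in low and 109 to 113 CPM in high. The defining Sox10 and Foxd3 had 2 counts each over the low and 1 each over the high libraries. Of 6 mesoderm and endothelial markers tested, 2 fell (Meox1 and Foxc1). Thinned to 1 depth, where Foxc1 was not tested, 1 fell, and without high 2 1 rose. The sums were 55.3 to 70.4 CPM in low and 25.8 to 49.3 CPM in high.

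Of 25 pluripotency genes 3 fell (12%) and 1 rose (4%), against 3.07% and 3.75% of all genes. The share of rises was near that of all genes, so the rise describes a single gene. Sums were 893 to 1450.0 CPM in low and 899 to 1023 CPM in high. Utf1, a chromatin factor of embryonic stem cells, stood at 48.3, 67.3, 49.4 and 35.1 CPM in low and at 20.6, 21.8, 10.9 and 13.7 CPM in high (log2 fold change -1.58, SE 0.223, adjusted p = 2.83e-05). Nanog stood at 5.07, 9.01, 4.09 and 0.580 CPM in low and at 0.166, 0.506, 1.08 and 1.22 CPM in high, with low 4 inside the high range (log2 fold change -2.66, adjusted p = 0.00458). Klf4 rose from 1.40 ± 0.869 to 4.77 ± 1.07 CPM (log2 fold change 1.74, adjusted p = 0.0405), a call lost in 7 alternatives. The number of falls was 5 without low 1 or high 2, 1 with only the high and low libraries in the fit and 8 without the filter on low counts. The number of rises was 2 without low 1 and 0 without low 3, low 4, high 1, high 2 or high 4. The part of pluripotent cells in the falls was not tested.

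Matrix and basement membrane genes showed 7 rises (24.1%) and 1 fall (3.45%) among 29, against 3.75% and 3.07% of all genes, and 4 rises without high 1. Vitronectin (Vtn), a cell adhesion glycoprotein, led the 14 largest rises (chromosome 11, 78499120 to 78502325). It stood at 2.15, 2.30, 0.847 and 1.74 CPM in low and at 25.4, 25.3, 23.6 and 28.9 CPM in high (log2 fold change 3.87, SE 0.290, adjusted p = 1.73e-09). The collagen IV chains Col4a1 (from 45.7 ± 9.90 to 112 ± 5.01 CPM, log2 fold change 1.29, adjusted p = 6.86e-07) and Col4a2 (from 39.0 ± 4.05 to 80.0 ± 6.25 CPM, log2 fold change 1.04, adjusted p = 2.48e-06), which form the network of basement membranes, rose side by side. Col18a1 rose from 458 ± 16.4 to 595 ± 28.1 CPM (log2 fold change 0.38, adjusted p = 0.00645). Col2a1, the collagen of notochord and cartilage, fell from 99.6 ± 10.8 to 65.8 ± 7.79 CPM (log2 fold change -0.60, adjusted p = 0.00437).

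Guidance and contact molecules changed in both directions: 10 of 41 rose and 7 fell (median 0.20). Ntng1, a membrane-anchored netrin relative, stood at 9.498, 15.5, 10.2 and 5.80 CPM in low and at 45.9, 57.9, 49.8 and 44.4 CPM in high (log2 fold change 2.28, SE 0.214, adjusted p = 5.80e-08). Epha7, an Eph receptor of the neural tube, stood at 37.9, 52.99, 37.6 and 30.6 CPM in low and at 8.48, 10.1, 11.6 and 7.91 CPM in high (log2 fold change -2.04, SE 0.205, adjusted p = 1.68e-07). Neither pair of ranges overlapped. Robo2, a Slit receptor, fell from 21.5 ± 4.50 to 6.97 ± 1.48 CPM (log2 fold change -1.59, adjusted p = 1.91e-05), and Dcc, the netrin receptor, named after its values were seen, fell from 5.21 ± 1.65 to 1.10 ± 0.194 CPM (log2 fold change -2.25, adjusted p = 6.31e-04). Ephb3 rose from 27.2 ± 7.32 to 58.9 ± 7.01 CPM (log2 fold change 1.12, adjusted p = 4.30e-05). The cue Ntn1 and the receptor Dcc thus moved in opposite directions. Of 18 genes of planar polarity and apical constriction, 3 rose (16.7%) and 1 fell (5.56%), against 3.75% and 3.07% of all genes. Cobl, an actin nucleator, stood at 11.5, 11.3, 10.0 and 9.72 CPM in low and at 52.4, 55.6, 51.2 and 39.3 CPM in high (log2 fold change 2.22, SE 0.211, adjusted p = 6.45e-08). The polarity genes Prickle1 (from 20.8 ± 3.83 to 41.8 ± 6.61 CPM, log2 fold change 1.02, adjusted p = 3.12e-04) and Vangl1 (from 21.7 ± 2.16 to 37.0 ± 4.91 CPM, log2 fold change 0.78, adjusted p = 0.00733) rose. Shroom3, which drives apical constriction in neural tube closure, fell from 39.9 ± 5.66 to 20.3 ± 5.29 CPM (log2 fold change -0.96, adjusted p = 0.00152).

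The other genes among the 14 largest rises were enzymes and cytoskeletal genes. Hsd11b2, which inactivates glucocorticoids, stood at 25.5, 17.5, 13.6 and 17.6 CPM in low and at 79.7, 112, 66.4 and 77.3 CPM in high (log2 fold change 2.17, SE 0.236, adjusted p = 6.20e-07). Arg1, the urea cycle arginase, stood at 21.7, 14.3, 21.3 and 17.7 CPM in low and at 72.2, 59.7, 76.3 and 62.4 CPM in high (log2 fold change 1.85, SE 0.203, adjusted p = 7.17e-07). Car4, a membrane carbonic anhydrase, stood at 10.4, 16.1, 9.88 and 10.2 CPM in low, with low 2 above the rest, and at 48.6, 64.0, 50.1 and 42.0 CPM in high (log2 fold change 2.15, SE 0.245, adjusted p = 1.33e-06). In these 3 genes each high library was above each low one by 2-fold or more. Aldh3b2, an aldehyde dehydrogenase, rose from 15.1 ± 4.53 to 53.4 ± 15.4 CPM (log2 fold change 1.83, adjusted p = 6.72e-07), and the kinesin Kif26b rose from 8.00 ± 0.464 to 31.0 ± 4.26 CPM (log2 fold change 1.95, adjusted p = 6.19e-07). Among the largest falls were Folr1, the folate receptor of the neural tube, from 83.9 ± 11.6 to 22.6 ± 2.93 CPM (log2 fold change -1.90, SE 0.158, adjusted p = 8.68e-09), the neurotrophin receptor Ntrk2, from 27.5 ± 2.65 to 6.35 ± 1.01 CPM (log2 fold change -2.13, adjusted p = 3.05e-07), and the axon growth gene Fez1, from 28.3 ± 4.02 to 6.69 ± 2.43 CPM (log2 fold change -2.10, adjusted p = 2.37e-07).

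Of 34 cell cycle genes, 2 rose (5.88%), 1 fell (2.94%) and 31 did not pass (median -0.03). These shares were near the 3.75% and 3.07% of all genes tested, so the calls below describe single genes. Cdkn1c (p57), an inhibitor of cyclin-dependent kinases, stood at 299.8, 203, 199 and 222 CPM in low and at 719, 701, 658 and 781 CPM in high. Its high libraries were each at more than 2 times any low library (log2 fold change 1.63, SE 0.154, adjusted p = 6.45e-08). Ccnd2, the D cyclin of neural progenitors, stood at 663, 647, 749 and 695 CPM in low and at 257, 260.3, 334 and 345 CPM in high (log2 fold change -1.2, SE 0.109, adjusted p = 3.85e-08). Ccnd1, given above among WNT response genes, rose from 196 ± 18.5 to 263 ± 9.92 CPM, so Ccnd1 and Ccnd2 moved in opposite directions. Without low 2 or low 4 the list had 1 rise. Among genes of replication and mitosis, Mcm5 was at 382 ± 27.3 and 308 ± 19.6 CPM (adjusted p = 0.0788) and Top2a at 641 ± 92.9 and 817 ± 105 CPM (adjusted p = 0.111). In the p53 list Mdm2 alone of 16 (6.25%) rose (log2 fold change 0.44, adjusted p = 0.0162), and not without low 3, low 4 or high 3. In the hypoxia and glycolysis list 2 of 26 (7.69%) rose. They were Hk2 (log2 fold change 0.46, adjusted p = 0.00992) and Pdk1 (log2 fold change 0.50, adjusted p = 0.0306), and the call of Pdk1 was lost in 7 of 15 alternatives. P4ha1, an enzyme of collagen hydroxylation, was at 19.4 ± 1.17 CPM in low and 12.8 ± 3.51 CPM in high (adjusted p = 0.0504) and was called lower in 6 alternatives, among them RLE scaling, DESeq2 and the omission of high 2. Klf4, given above, was the rise among 17 immediate early and heat shock genes (5.88%), where 1 gene fell without high 3 and in 3 further alternatives.

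No cholesterol gene of 23 passed in edgeR, where an unadjusted p under 0.05 gave 2 higher and 5 lower, DESeq2 called 1 lower, and without high 4 edgeR called 1 lower. No mitochondrially encoded gene of 7 passed in edgeR or DESeq2, and none had an unadjusted p under 0.05.

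The medium and negative gates take no part in the fold change of high against low, and their means were set against it as a description. The medium mean lay between the low and the high mean in 508 of the 521 genes that rose (97.5%) and in 413 of the 427 that fell (96.7%), against 48.1% of all genes tested. Called genes were chosen for a wide gap between low and high, in which the mean of another gate falls more often. The medium and negative libraries also entered the shared estimate of the spread. A higher share than over all genes is therefore partly built in. The median position of medium on the way from low to high was 0.422 for the rises and 0.513 for the falls, where 0 is the low and 1 the high mean. The negative mean lay beyond the low mean, away from high, in 63.1% of the rises and in 42.4% of the falls, against 48.4% of all genes. In 55.7% of the falls it lay between low and high, against 34.5% of the rises and 26.9% of all genes. Bmp4 followed the gates in order, at 5.03 ± 0.955 CPM in negative, 11.2 ± 3.78 in low, 26.8 ± 2.80 in medium and 33.4 ± 8.16 in high. Crabp1 was highest in low, at 5483 ± 1182 CPM in negative, 7351 ± 642 in low, 5585 ± 777 in medium and 2751 ± 446 in high. Ptch1 differed between negative (28.7 ± 3.62 CPM) and low (33.2 ± 8.50 CPM) by less than the SD of the low gate, and was at 66.5 ± 21.8 CPM in medium. Sox17 was at 11.7 ± 3.02 CPM in negative and 52.4 ± 7.80 in low, and medium (112 ± 31.7 CPM) was near high (134 ± 14.5 CPM).

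**Figure D4:**
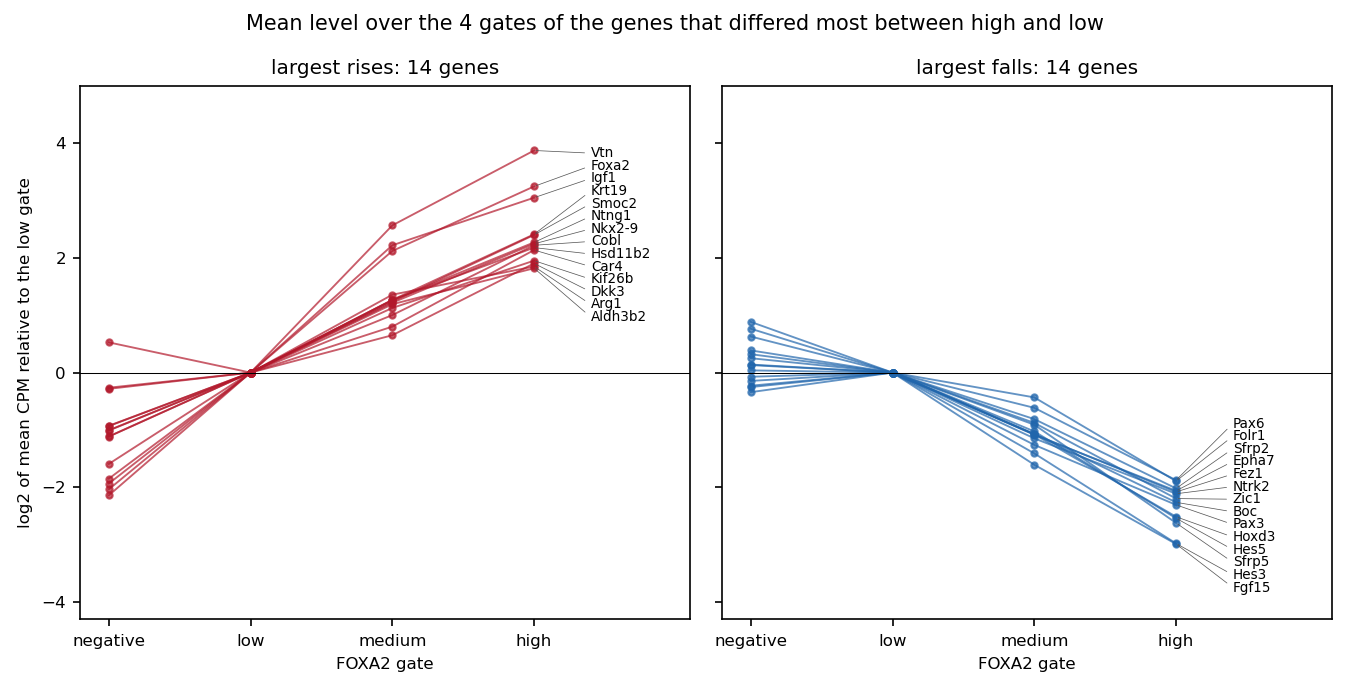
Mean CPM in each gate (horizontal axis) relative to the low gate on a log2 scale (vertical axis), 1 line per gene, for the 14 largest rises (left, red) and the 14 largest falls (right, blue). Every line has its medium point between low and high, while the negative points lie on both sides of the low level.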

How the data were processed

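BRB-seq, a pooled bulk 3′ RNA-seq method, was used, per the labels' protocols. The authors deposited raw counts for 35976 genes in 16 columns, with no normalization, per the file headers and values. Cutadapt 1.18, STARsolo 2.7.9a, DESeq2 1.42.0 and the build GRCm38 are named in the submitters' processing notes, with no parameters. The annotation, strand use and molecular identifier handling were not given in the sources used here.

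Counts were tested with edgeR 4.0.16 (R 4.3.3). Its expression filter left 13891 genes, holding at least 99.665% of each library's counts. Libraries were scaled by TMM, a quasi-likelihood model of the 4 gates was fitted to all 16 libraries, and high minus low was tested with Benjamini-Hochberg adjustment over all genes at 0.05. Adjusted p values are from this test unless an alternative is named beside them. SE was taken as the size of the fitted log2 change over the root of its F statistic. One count was worth 0.127 to 0.177 CPM in the low and 0.154 to 0.304 CPM in the high libraries, and limits from counts cover counting error only. On simulated counts of the same design, edgeR called 62 of 100 genes with a 2-fold change, 91 of 100 with a 4-fold change and 6 of 13411 without any. The changed genes were drawn from those with a mean of at least 1 CPM over the gates, so these shares do not cover rarer genes. Libraries were simulated independently, with no effect shared by a replicate number.

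The 35 lists (703 genes) and the members were chosen with earlier results of these data known, so lists are described by counts and medians and were not tested as sets. Genes named were the 14 largest called changes each way at 20 CPM or more with 4 same-signed differences, without unnamed models, up to 5 members of each list by p, and a fixed panel; some genes that this rule gives are not reported here. Same-numbered high and low libraries correlated at 0.036 to 0.119 in their deviations from the gate means, all positive. Those with different numbers correlated at -0.0814 to 0.0555. For low 1, low 2 and low 3 the same-numbered high library correlated best. The main test still took no pairs, and a replicate block is among the alternatives. Positions and promoters are from RefSeq (GRCm38.p6). The 15 alternatives were DESeq2 1.42.0, RLE size factors, no filter, a replicate block, only high and low libraries, thinning to the smallest total, omission of low 1 with medium 2, and omission of each of the 8 libraries.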

Additional observations from a re-analysis of the deposited data

Results flagged for a closer look

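In 24 of the 322 sets of 4 libraries examined (each tested gene named here, in the low and in the high gate), 1 library lay apart from the other 3 by more than Dixon's critical value for 4 samples. Chance gives about 1 in 20. 9030622O22Rik was at 0 CPM in low 3, below the other low libraries, which ran from 1.16 to 1.39 CPM. 9030622O22Rik was at 41.5 CPM in high 3, below the other high libraries, which ran from 47.3 to 48.1 CPM. Axin2 was at 53.9 CPM in low 2, above the other low libraries, which ran from 42.5 to 43.8 CPM. Bmp7 was at 89.0 CPM in high 2, above the other high libraries, which ran from 67.0 to 68.8 CPM. Car4 was at 16.1 CPM in low 2, above the other low libraries, which ran from 9.88 to 10.4 CPM. Cdh1 was at 70.3 CPM in high 3, below the other high libraries, which ran from 75.8 to 76.9 CPM. Cyp26b1 was at 12.4 CPM in low 2, above the other low libraries, which ran from 3.25 to 4.50 CPM. Dbx1 was at 0.506 CPM in high 2, above the other high libraries, which ran from 0.304 to 0.333 CPM. Its counts were 2, 2, 2 and 1 in high 1 to high 4, so high 2 held no more counts than high 1 or high 3. Foxc1 was at 2.13 CPM in high 4, above the other high libraries, which were all at 0. Gja1 was at 205 CPM in low 1, above the other low libraries, which ran from 129 to 142 CPM. Hes5 was at 26.8 CPM in high 4, above the other high libraries, which ran from 16.1 to 16.7 CPM. Hoxb1 was at 75.8 CPM in low 2, above the other low libraries, which ran from 56.5 to 59.2 CPM. Hrg was at 58.6 CPM in high 3, above the other high libraries, which ran from 0 to 1.497 CPM. Igfbp5 was at 494 CPM in high 4, above the other high libraries, which ran from 419 to 429 CPM. Igfbpl1 was at 54.8 CPM in low 4, below the other low libraries, which ran from 72.6 to 73.1 CPM. Krt18 was at 215 CPM in low 2, above the other low libraries, which ran from 136 to 148 CPM. Ntn1 was at 36.5 CPM in high 4, above the other high libraries, which ran from 24.7 to 26.1 CPM. Osr1 was at 4.87 CPM in high 4, below the other high libraries, which ran from 9.98 to 10.9 CPM. Rfx4 was at 59.6 CPM in low 4, above the other low libraries, which ran from 49.3 to 51.0 CPM. Shroom3 was at 12.4 CPM in high 2, below the other high libraries, which ran from 22.2 to 23.4 CPM. Slit1 was at 17.7 CPM in high 2, below the other high libraries, which ran from 21.0 to 21.1 CPM. Smoc1 was at 184 CPM in high 3, below the other high libraries, which ran from 199 to 201 CPM. Tcf7l1 was at 77.2 CPM in high 1, above the other high libraries, which ran from 59.0 to 61.7 CPM. Tfap2b was at 24.4 CPM in low 2, above the other low libraries, which ran from 8.99 to 9.24 CPM. By library, the counts were 1 in high 1, 4 in high 2, 4 in high 3, 5 in high 4, 1 in low 1, 6 in low 2, 1 in low 3 and 2 in low 4.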

How the results depend on the processing

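Of the called genes named in the text, Hrg alone changed direction under the 15 alternatives: its log2 fold change was -0.94 without high 3 and up to 3.79 without another library. Of those not called, Foxj1 (-0.08 to 0.63) and Bmpr1a (-0.01 to 0.17) had values on both sides of 0. The 521 rises ranged from 354 (without low 4) to 467 when 1 library was left out, and were 516 with RLE scaling, 604 with DESeq2, 529 without the filter, 548 with only the high and low libraries, 440 thinned to the smallest total and 555 without low 1 and medium 2. The 427 falls ranged from 317 (without high 1) to 400 when 1 library was left out, and were 430, 486, 563, 410, 358 and 471 in the same order. With the replicate number as a block, 566 rose and 471 fell. The labels repeat the numbers in each gate but do not tie them to shared cultures. Same-numbered high and low libraries all correlated positively, and only the pair numbered 2 had a correlation over 0.1. Of all calls, 89.2% were kept without the filter and 67.7% without high 2. The share of called genes with medium between low and high, 97.2% in all, was 91.9% without low 1 and medium 2. Of the 140 called genes named in the text, 122 kept their call in every alternative that tested the gene and 18 lost it in at least 1. Among the 122, Bmp3, Nanog, Dkk1, Cdx2 and Foxc1 had a result in 14 of the 15 alternatives only. Beside omissions of 1 library, these list counts moved by over 1.5 times, each set for the count in the report, with its list in parentheses. With the block, rises were 5 for 3 (IGF system), 2 for 1 (immediate early), 1 for 0 (pan-neural), 2 for 1 (pluripotency), 1 for 0 (neuronal) and 2 for 1 (retinoic acid) and falls were 1 for 0 (endoderm), 1 for 0 (hypoxia), 2 for 1 (planar polarity) and 7 for 3 (pluripotency). Without the filter, falls were 2 for 1 (BMP ligand), 4 for 2 (BMP response), 8 for 5 (Hox), 2 for 1 (Notch pathway), 1 for 0 (WNT response), 1 for 0 (endoderm), 1 for 0 (hypoxia), 1 for 0 (immediate early), 2 for 1 (planar polarity) and 8 for 3 (pluripotency) and rises were 1 for 2 (hypoxia), 2 for 1 (immediate early), 1 for 0 (pan-neural), 3 for 1 (pluripotency) and 3 for 1 (retinoic acid). With DESeq2, falls were 2 for 1 (BMP ligand), 2 for 1 (cell cycle), 1 for 0 (cholesterol), 1 for 0 (hypoxia) and 1 for 0 (immediate early). With RLE scaling, falls were 1 for 0 (hypoxia). With only the high and low libraries, falls were 0 for 1 (BMP ligand), 2 for 1 (Notch pathway), 2 for 1 (cell cycle), 2 for 1 (planar polarity) and 1 for 3 (pluripotency) and rises were 2 for 0 (pan-neural). Thinned, rises were 1 for 3 (BMP ligand), 0 for 1 (immediate early) and 0 for 1 (pluripotency) and falls were 1 for 0 (hypoxia) and 1 for 2 (mesoderm). Bmp3 and Foxc1 were not tested when thinned. Without low 1 and medium 2, falls were 2 for 1 (BMP ligand), 2 for 1 (matrix), 3 for 1 (cell cycle), 1 for 0 (cholesterol), 1 for 0 (immediate early) and 5 for 3 (pluripotency) and rises were 2 for 1 (BMP response), 2 for 0 (pan-neural), 2 for 1 (pluripotency) and 3 for 1 (retinoic acid). The causes were not tested. Depth limits the genes with few counts: a gene with 0 in high 4, the shallowest library, can be at up to 0.913 CPM.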

Other observations

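Genes outside the lists, chosen after their values were seen, add to the picture of the high gate. Apela, the peptide ligand of the apelin receptor, stood at 12.3, 13.2, 8.47 and 9.14 CPM in low and at 29.3, 28.8, 35.5 and 39.6 CPM in high (log2 fold change 1.62, adjusted p = 1.33e-06). Cfc1, a Nodal co-receptor of left-right patterning, rose from 1.06 ± 0.681 to 11.7 ± 2.31 CPM (log2 fold change 3.41, adjusted p = 1.87e-05). The chemokine Cxcl12 rose from 6.11 ± 1.49 to 16.9 ± 3.06 CPM (log2 fold change 1.48, adjusted p = 1.85e-04). The transcription factors Six2, known from kidney progenitors (from 2.59 ± 1.08 to 16.4 ± 5.26 CPM, log2 fold change 2.68, adjusted p = 9.43e-06), and Osr1, known from early mesoderm (from 1.10 ± 1.02 to 9.17 ± 2.90 CPM, log2 fold change 3.06, adjusted p = 3.13e-04), rose. Prss8, a membrane protease of epithelia, rose from 39.6 ± 13.8 to 90.0 ± 6.90 CPM (log2 fold change 1.19, adjusted p = 1.57e-05). Elmo1, which activates Rac, stood at 28.7, 19.4, 15.2 and 19.1 CPM in low and at 72.3, 77.1, 55.2 and 76.4 CPM in high (log2 fold change 1.76, adjusted p = 1.43e-07). Khdc3, a gene known from the oocyte, rose from 45.8 ± 6.01 to 117 ± 38.8 CPM (log2 fold change 1.36, adjusted p = 2.45e-05).

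Among falls outside the lists, Mest, an imprinted gene of growing embryonic tissue, stood at 1360.0, 1136, 1188 and 1245 CPM in low and at 470.1, 559, 533 and 548 CPM in high (log2 fold change -1.22, adjusted p = 4.69e-09). Of other imprinted genes, Ndn fell from 212 ± 14.1 to 139 ± 15.1 CPM (log2 fold change -0.61, adjusted p = 1.72e-04), whereas Meg3 (from 381 ± 77.3 to 578 ± 65.5 CPM, log2 fold change 0.60, adjusted p = 0.00411) and Peg3 (from 56.4 ± 9.17 to 83.7 ± 7.55 CPM, log2 fold change 0.57, adjusted p = 0.00510) rose. The neurofilament genes Nefm (from 21.0 ± 3.40 to 7.73 ± 1.84 CPM, log2 fold change -1.42, adjusted p = 1.87e-05) and Nefl (from 61.8 ± 16.4 to 29.5 ± 3.49 CPM, log2 fold change -1.06, adjusted p = 2.34e-04) fell, and so did Map1b, a microtubule protein of neurons, from 291 ± 37.2 to 161 ± 16.7 CPM (log2 fold change -0.85, adjusted p = 3.82e-05). Gja1, a gap junction protein of neural progenitors, fell from 154 ± 34.3 to 92.7 ± 7.64 CPM (log2 fold change -0.73, adjusted p = 3.54e-04).

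Hrg, a plasma protein gene of liver, was at 1.497, 0.506, 58.6 and 0 CPM in the high libraries and at 1.01, 2.47, 0.706 and 1.89 CPM in the low ones, so that high 3 alone carried its fitted log2 fold change of 3.41 (adjusted p = 0.0463).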
